A study of Mus musculus with 4 samples.

Results

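Aminoacyl-tRNA synthetases are the enzymes that load each tRNA with its amino acid. The 36 genes described here were chosen by name, whatever their values: 20 encode enzymes of the cytosol and 16, with names ending in 2, encode enzymes of mitochondria. They were found among the 78334 gene identifiers of the count table, and all 36 matched an identifier. Symbols follow the older mouse names (Nars is also written Nars1, Eprs is also Eprs1), except Mars1.

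Expression was measured by sequencing polyadenylated RNA of retinal ganglion cells, the output neurons of the eye, whose axons make up the optic nerve, from wild-type mice of both sexes. The anti-miR132-3p cells carried an adeno-associated virus of serotype 2 (AAV2) that expressed anti-miR132-3p shRNA, and the scramble cells carried AAV2 with scramble shRNA. Both vectors also expressed mCherry, both were injected into the eye (2 µl) at 8 weeks of age, the optic nerve was crushed 2 weeks later, and cells were collected 2 weeks after the crush. All 4 libraries thus came from injured and infected cells, with 2 libraries a group and no uninjured or uninfected sample among them. Per the labels, 10 retinas were pooled per condition, about 40% of ganglion cells were infected, and about 5000 cells per library were enriched with Thy1 and sorted for mCherry.

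Cytosolic synthetases supply the ribosomes that translate nuclear-encoded mRNAs. Several of them sit with scaffold proteins in the multisynthetase complex. Mitochondrial synthetases, also encoded in the nucleus, charge the tRNAs used to translate the few proteins of the mitochondrial genome. In mammalian cells many cytosolic synthetase genes are known targets of ATF4, a transcription factor whose translation increases when eIF2 is phosphorylated, for example by GCN2 (Eif2ak4) when tRNAs are uncharged. Axon injury is known to engage this pathway in ganglion cells through PERK (Eif2ak3).

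The sequences of the 2 vectors are shown because the comparison rests on them, with the seed of miR-132-3p (bases 2 to 8) and its match in capitals. The mature miRNA lies at chr11:75173723-75173744 on the + strand of GRCm38.p6 (RefSeq), and the insert of the anti-miR132-3p vector is its exact reverse complement.
miR-132-3p: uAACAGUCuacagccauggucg
anti-miR132-3p insert: cgaccatggctgtaGACTGTTa
scramble insert: tcgagggcgacttaaccttagg

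Only Iars2 and Nars2, both mitochondrial, held a match to this seed in the longest annotated 3' UTR. They were 2 of the 34 tested synthetases (5.88%), against 1478 of 10400 tested genes with a 3' UTR (14.2%). The median 3' UTR was 526.5 bases for these synthetases and 1348.5 bases for all. The sites are shown, ending with the match in capitals, at position 1394 of 2323 bases in Iars2 and position 7 of 2045 bases in Nars2.
Iars2: aaaagcccttagtgaagtagtaGACTGTTA
Nars2: ctgaaaGACTGTT

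Neither gene passed the test. Iars2, for isoleucine, had 79 and 72 counts in the anti-miR132-3p libraries, against 59 and 74 counts in the scramble libraries, with a ratio of 1.19 (95% interval 0.935 to 1.51). Nars2, for asparagine, had 67 and 73 counts in the anti-miR132-3p libraries, against 76 and 71 counts in the scramble libraries, with a ratio of 0.997 (0.785 to 1.27). Both intervals hold 1. Exons of Iars2 overlap those of Rab3gap2 by 2034 bases on the other strand, and the strand setting of the counting is not given, so the counts of these genes cannot be told apart there.

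The libraries held 1732416 and 1731199 counts in the anti-miR132-3p group, against 1845090 and 1846637 counts in the scramble group, so 3 counts correspond to 1.63 to 1.73 CPM (counts scaled to a library of 1000000). The 2 libraries of a group differed by no more than sampling noise allows (chi-square per degree of freedom 1.00, p = 0.486, for anti-miR132-3p, and 1.02, p = 0.0954, for scramble), so a pair counts here as 1 sample. There is then no replicate check of any difference: p-values here compare the reads of these libraries and not the conditions, and intervals cover counting error only. The columns taken as scramble are named for mCherry, which both vectors express, and every direction depends on that assignment. Ganglion cell markers summed to 3175 and 3126 CPM in the anti-miR132-3p libraries, against 3173 and 3165 CPM in the scramble libraries, with all 15 above 0, and of 13 tested 3 were called higher (Nefm, Tubb3 and Thy1, the antigen used for enrichment) and 3 lower (Gap43, Nefh and Pou4f1). Amacrine markers summed to 4679 and 4684 CPM in the anti-miR132-3p libraries, against 3569 and 3619 CPM in the scramble libraries, with Gad1, Slc32a1 and Tfap2b at 0 throughout, and 4 of 8 tested were called higher and 1 lower. Müller glia markers summed to 2338 and 2351 CPM in the anti-miR132-3p libraries, against 1788 and 1784 CPM in the scramble libraries, with 2 of 7 tested called higher, Dkk3 and Apoe. Without Dkk3, the most abundant, they were 706 and 748 CPM in the anti-miR132-3p libraries, against 696 and 685 CPM in the scramble libraries. Rod markers summed to 29.6 and 26.7 CPM in the anti-miR132-3p libraries, against 107.6 and 97.4 CPM in the scramble libraries, with Gnat1 at 0 throughout, and 3 of 4 tested were called lower. Microglia markers, none abundant enough to test, summed to 19.1 and 23.2 CPM in the anti-miR132-3p libraries, against 1.66 and 1.11 CPM in the scramble libraries, with Trem2 and Fcrls at 0 throughout. All 13 tested interferon response genes of 16 were called higher in anti-miR132-3p cells. Some of them, such as Irf7 and Ifi44 with 0 counts in both scramble libraries, passed the count filter only through the anti-miR132-3p libraries. Their share called higher is thus partly set by the filter. Among all tested genes 13.5% were called higher and 10.4% lower. The part of the marker and interferon differences in the results on synthetases was not tested. In bulk RNA, fewer cells of a type and less RNA per cell cannot be told apart.

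Cytosolic synthetase mRNAs were lower in anti-miR132-3p cells more often than higher. Of 20 genes, all tested, 9 were called lower and 3 higher with edgeR's quasi-likelihood test at a Benjamini-Hochberg adjusted p under 0.05. That is 45.0% lower and 15% higher, against 10.4% lower and 13.5% higher among all 11427 tested genes. Of 14 tested mitochondrial synthetases, 0 were called lower and 1 was called higher, although 5 were lower and 1 higher at an unadjusted p under 0.05, against 16.9% lower and 19.5% higher among all tested genes. The median log2 fold change was -0.18 over the cytosolic genes, 0.10 over the mitochondrial genes and -0.003 over all tested genes. When the pairs were summed and a coefficient of variation of 0.1 between samples was assumed, no synthetase was called, and 1 cytosolic gene was higher and 2 lower at an unadjusted p under 0.05 (11.4% higher and 4.35% lower among all tested genes). None was called by edgeR when any single library was left out, where 1 to 4 cytosolic genes were higher and 9 to 10 lower at an unadjusted p under 0.05 (12.2% to 13.1% higher and 9.65% to 10.6% lower among all genes tested in those fits).

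**Figure D1:**
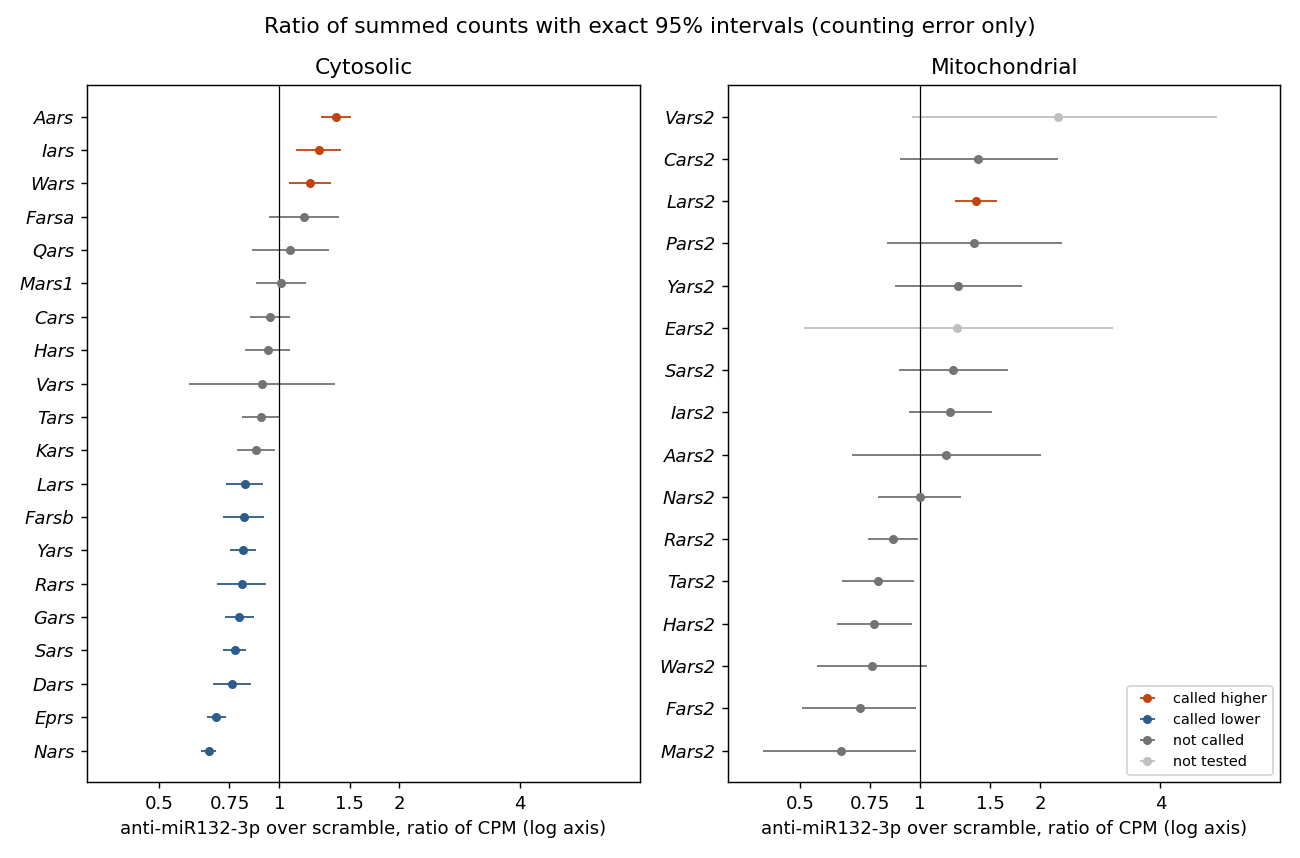
Ratio of CPM in anti-miR132-3p cells to that in scramble cells for each cytosolic (left) and mitochondrial (right) synthetase, on a log axis. Points are ratios of summed counts, bars are exact 95% intervals for counting error, and colours give the call. The 9 cytosolic genes called lower lie between 0.665 and 0.818, and the mitochondrial intervals are wider, with a median width of 0.935 against 0.327 log2 units.

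By size alone, 5 cytosolic synthetases were at least 20% lower and 2 at least 25% higher, the same fold in each direction, against 16.3% lower and 24.0% higher among all tested genes. That fold was passed by 5 mitochondrial genes in the lower direction and 3 in the higher direction. Both anti-miR132-3p libraries lay below both scramble libraries for 12 cytosolic genes and above both for 3, against 30.6% below and 31.3% above among all tested genes. For the mitochondrial genes tested these counts were 6 below and 5 above, with 3 overlapping. Counts set the width of these comparisons, since the median cytosolic gene had 569.5 counts in anti-miR132-3p cells and 677 counts in scramble cells, and the median mitochondrial gene had 70 counts in anti-miR132-3p cells and 86.5 counts in scramble cells.

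Nars (ENSMUSG00000024587.11), asparaginyl-tRNA synthetase, was the most abundant synthetase per length in both groups and had the lowest cytosolic ratio. It had 1556 and 1495 counts in the anti-miR132-3p libraries, against 2402 and 2403 counts in the scramble libraries. The libraries of the 2 groups did not overlap, and the level was 885 CPM in anti-miR132-3p cells and 1331 CPM in scramble cells. The ratio was 0.665 (0.635 to 0.696), with a log2 fold change of -0.59 and an edgeR adjusted p of 3.09e-09.

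Eprs (ENSMUSG00000026615.15) encodes a fused enzyme for glutamate and proline, a member of the multisynthetase complex. It had 1013 and 1012 counts in the anti-miR132-3p libraries, against 1466 and 1581 counts in the scramble libraries. Again the groups did not overlap. The level was 587 CPM in anti-miR132-3p cells and 844 CPM in scramble cells, a ratio of 0.696 (0.658 to 0.736) and a log2 fold change of -0.52 (edgeR adjusted p = 2.56e-07).

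Sars, Gars and Yars, for serine, glycine and tyrosine, are abundant enzymes outside the complex, and all 3 were called lower. Sars had 783 and 769 counts in the anti-miR132-3p libraries, against 1055 and 1045 counts in the scramble libraries, a log2 fold change of -0.37 (edgeR adjusted p = 1.39e-05). Gars had 501 counts in each anti-miR132-3p library, against 655 and 667 counts in the scramble libraries, a log2 fold change of -0.33 (edgeR adjusted p = 0.000293). Yars had 607 and 560 counts in the anti-miR132-3p libraries, against 757 and 749 counts in the scramble libraries, a log2 fold change of -0.30 (edgeR adjusted p = 0.000694). In none of the 3 did the groups overlap, and the ratios were 0.774 for Sars, 0.794 for Gars and 0.811 for Yars.

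Dars, Lars and Rars, for aspartate, leucine and arginine, belong to the multisynthetase complex and were lower by similar ratios. Dars had 279 and 268 counts in the anti-miR132-3p libraries, against 395 and 357 counts in the scramble libraries, with a ratio of 0.762 and an edgeR adjusted p of 0.00159. Lars had 324 and 323 counts in the anti-miR132-3p libraries, against 420 and 408 counts in the scramble libraries, with a ratio of 0.818 and an edgeR adjusted p of 0.00523. Rars had 169 and 173 counts in the anti-miR132-3p libraries, against 218 and 227 counts in the scramble libraries, with a ratio of 0.805 and an edgeR adjusted p of 0.0215. Each gene's groups were separate.

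The phenylalanine enzyme of the cytosol is built from the products of Farsa and Farsb. Farsb, the beta subunit, had 248 and 254 counts in the anti-miR132-3p libraries, against 315 and 330 counts in the scramble libraries, with a ratio of 0.815 (0.724 to 0.917) and an edgeR adjusted p of 0.0109. Farsa, the alpha subunit, had 92 and 117 counts in the anti-miR132-3p libraries, against 93 and 97 counts in the scramble libraries, with a ratio of 1.15 (0.942 to 1.41). Farsa was not called, its groups overlapped, and the difference between the subunits was not tested. Exons of Farsb overlap those of Sgpp2 by 248 bases on the other strand, where Sgpp2 had 29 and 25 counts in the anti-miR132-3p libraries and 29 and 31 in the scramble libraries.

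Aars, Iars and Wars were the cytosolic genes called higher. Aars (ENSMUSG00000031960.15), for alanine, had 615 and 616 counts in the anti-miR132-3p libraries, against 456 and 474 counts in the scramble libraries. The level was 357 CPM in anti-miR132-3p cells and 258 CPM in scramble cells, a ratio of 1.39 (1.27 to 1.51) and a log2 fold change of 0.47 (edgeR adjusted p = 1.54e-05). The gene Exosc6 lies on the same strand within an annotated Aars transcript, over 1326 bases, and had 0 counts in all 4 libraries. Reads of Aars and Exosc6 therefore cannot be told apart.

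Iars, for isoleucine and part of the complex, had 246 and 278 counts in the anti-miR132-3p libraries, against 231 and 206 counts in the scramble libraries, with a ratio of 1.26 (1.104 to 1.43) and an edgeR adjusted p of 0.0178. Wars, for tryptophan, is also known as an interferon-induced gene in human cells. It had 279 and 290 counts in the anti-miR132-3p libraries, against 256 and 244 counts in the scramble libraries, with a ratio of 1.19 (1.05 to 1.35) and an edgeR adjusted p of 0.0298. Groups did not overlap for either gene, though the lower Iars library of the anti-miR132-3p cells lay close to the higher scramble one.

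The other 8 cytosolic genes were Cars, Farsa, Hars, Kars, Mars1, Qars, Tars and Vars, with log2 fold changes between -0.20 and 0.20 and edgeR adjusted p between 0.0576 and 0.943. Kars, for lysine, was nearest to the threshold, with 292 and 299 counts in the anti-miR132-3p libraries, against 361 and 348 counts in the scramble libraries. Vars, for valine, was the scarcest cytosolic synthetase, with 17 and 28 counts in the anti-miR132-3p libraries, against 21 and 31 counts in the scramble libraries. Its ratio of 0.906 had an interval of 0.594 to 1.38, so neither a fall nor a rise of the size seen in other members was detectable at this depth. Mars1 shares 68 bases with Ddit3, and Hars 195 bases with Hars2, each on opposite strands.

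Among the mitochondrial enzymes, Lars2 (ENSMUSG00000035202.9), for leucine, was the member called. It had 316 and 296 counts in the anti-miR132-3p libraries, against 226 and 238 counts in the scramble libraries, and the groups did not overlap. The level was 178 CPM in anti-miR132-3p cells and 129 CPM in scramble cells, a ratio of 1.38 (1.22 to 1.56) and a log2 fold change of 0.47 (edgeR adjusted p = 0.000569). Its cytosolic counterpart Lars was called in the opposite direction, with a log2 fold change of -0.29.

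The other 13 tested mitochondrial genes spanned log2 fold changes from -0.66 (Mars2) to 0.48 (Cars2), with edgeR adjusted p between 0.0699 and 0.991. Tars2, Hars2, Fars2, Wars2 and Mars2, for threonine, histidine, phenylalanine, tryptophan and methionine, were at least 20% lower, with ratios between 0.632 and 0.785, but did not pass the test. Mars2 had 18 and 17 counts in the anti-miR132-3p libraries, against 24 and 34 counts in the scramble libraries, with a ratio of 0.632 (0.403 to 0.978). Cars2, for cysteine, had 26 and 22 counts in the anti-miR132-3p libraries, against 17 and 19 counts in the scramble libraries, with a ratio of 1.40 (0.888 to 2.21). Pars2, for proline, had a ratio of 1.36 (0.824 to 2.27). Of the 16 mitochondrial intervals 10 held 1, as did 6 of the 20 cytosolic ones.

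Rars2, for arginine, was the highest mitochondrial synthetase per length, with 178 and 171 counts in the anti-miR132-3p libraries, against 213 and 214 counts in the scramble libraries. Its ratio was 0.856 (0.741 to 0.988), with an edgeR adjusted p of 0.0897. Ears2, for glutamate, and Vars2, for valine, were too scarce to test. Ears2 had 5 and 8 counts in the anti-miR132-3p libraries, against 10 and 1 in the scramble libraries, and Vars2 had 7 and 12 in the anti-miR132-3p libraries, against 6 and 3 in the scramble libraries. Overlapping genes on the other strand were annotated for Fars2 (Nrn1, 501 bases), Cars2 (Naxd, 422 bases), Nars2 (284 bases) and Ears2 (Ubfd1, 89 bases).

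**Figure D2:**
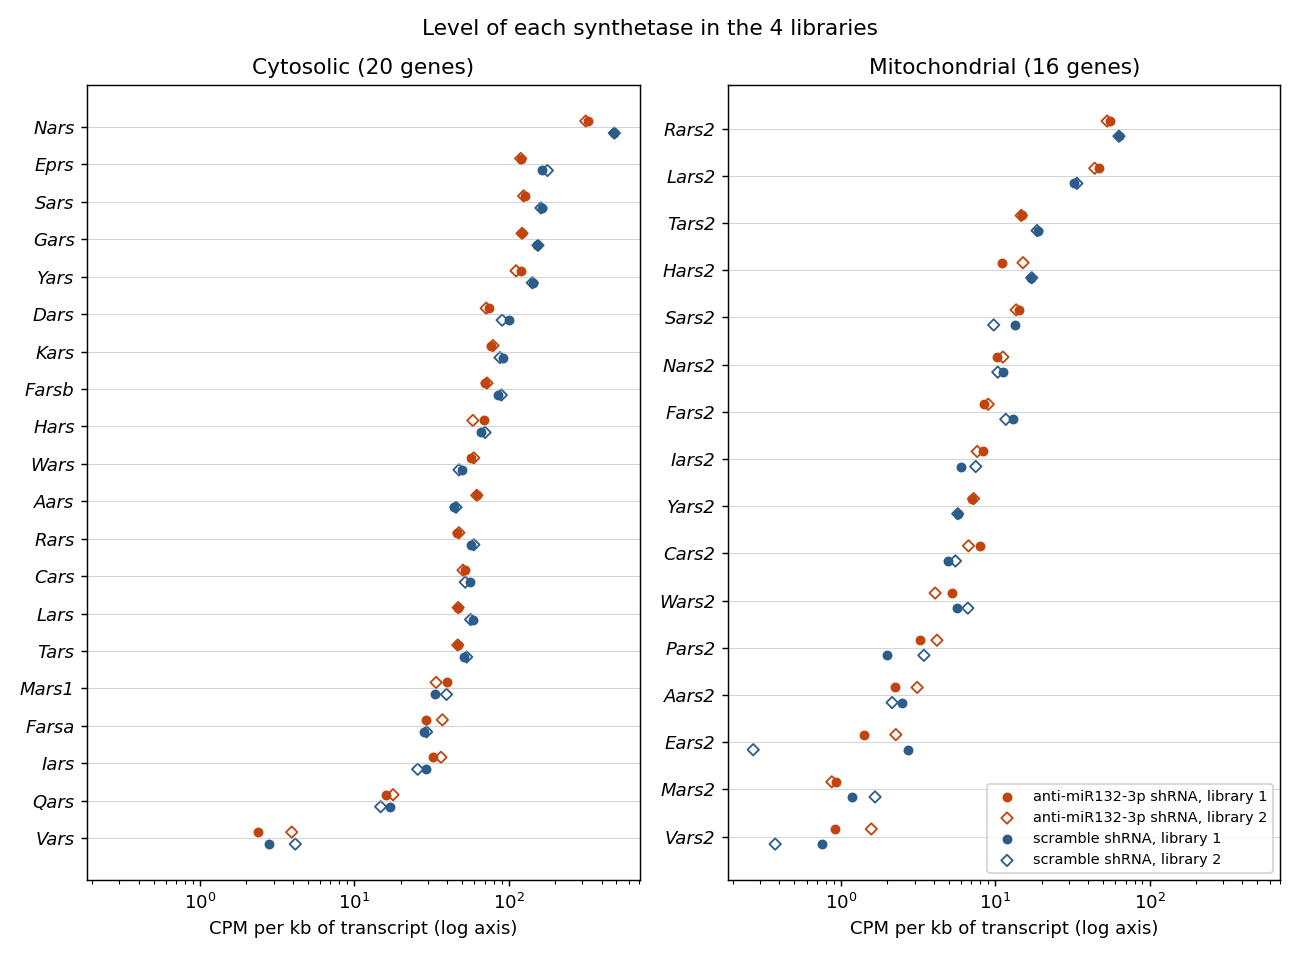
Level of each synthetase in the 4 libraries, in CPM per kilobase of the longest annotated protein-coding transcript, on a log axis, with cytosolic genes on the left and mitochondrial genes on the right. Filled circles and open diamonds are the 2 libraries of a group, with anti-miR132-3p drawn above scramble. Nars stands highest in all 4 libraries, and Rars2 and Lars2 stand above the other mitochondrial genes.

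Levels of different genes were compared per kilobase of the longest annotated protein-coding transcript. Nars reached 322 CPM per kb in anti-miR132-3p cells and 485 CPM per kb in scramble cells. The next were Sars, Gars, Eprs and Yars, between 116 and 126 CPM per kb in anti-miR132-3p cells and between 143 and 172 CPM per kb in scramble cells. These 5 most abundant members were all called lower. The cytosolic median was 60.2 CPM per kb in anti-miR132-3p cells and 58.0 CPM per kb in scramble cells, and the mitochondrial median was 7.66 CPM per kb in anti-miR132-3p cells and 6.45 CPM per kb in scramble cells. Rars2 had 54.2 CPM per kb in anti-miR132-3p cells and 63.3 CPM per kb in scramble cells, and Lars2 had 45.6 CPM per kb in anti-miR132-3p cells and 33.0 CPM per kb in scramble cells.

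Summed over all 20 cytosolic genes, the level was 4729 and 4672 CPM in the anti-miR132-3p libraries, against 5715 and 5754 CPM in the scramble libraries. The ratio of the summed counts was 0.820 (0.803 to 0.837). Over all 16 mitochondrial genes the level was 594 and 594 CPM in the anti-miR132-3p libraries, against 577 and 586 CPM in the scramble libraries, a ratio of 1.02 (0.961 to 1.09). Mitochondrial enzymes thus held 11.2% and 11.3% of synthetase counts in the anti-miR132-3p libraries, against 9.16% and 9.24% in the scramble libraries.

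The difference between the compartments came to a ratio of ratios of 0.802 (0.752 to 0.856), and its size rested on 3 genes. Without Nars and Eprs the cytosolic ratio was 0.907 (0.884 to 0.930), and without Lars2 the mitochondrial ratio was 0.920 (0.856 to 0.988). Without all 3 the ratio of ratios was 0.986 (0.914 to 1.06), an interval that holds 1. These genes were left out after their values were seen. The summed cytosolic level was lower with and without them.

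The 15 pairs of a cytosolic and a mitochondrial gene for the same amino acid covered 14 amino acids. The cytosolic gene was higher per kb in 14 pairs in both groups. The largest ratios were 41.0 in anti-miR132-3p cells (methionine) and 45.0 in scramble cells (asparagine). The exception was arginine, where Rars stood at 0.868 times the level of Rars2 in anti-miR132-3p cells and 0.923 times in scramble cells. The methionine ratio depends on the transcript length used for Mars2, 11294 bases, of which 9470 are 3' UTR. In 7 of the 14 tested pairs both log2 fold changes had the same sign. Alanine and isoleucine were positive in both compartments, while cysteine, serine and tyrosine joined leucine in having a negative cytosolic value and a positive mitochondrial one.

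**Figure D3:**
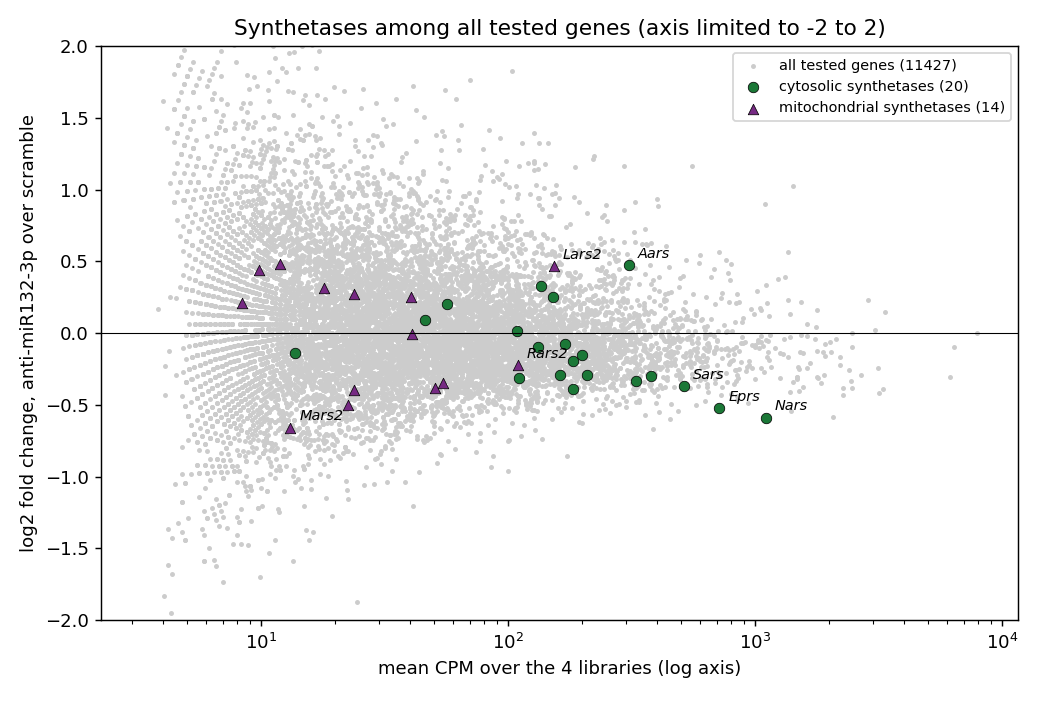
Log2 fold change of anti-miR132-3p over scramble against mean CPM on a log axis for all 11427 tested genes (grey), with the 20 cytosolic (circles) and 14 tested mitochondrial (triangles) synthetases. The vertical axis stops at -2 and 2, beyond which some grey points lie. Nars and Eprs, at the right, lie at -0.59 and -0.52, and Aars and Lars2 at 0.47.

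The cytosolic genes were also described by complex and by catalytic class, beside 10.4% called lower and 13.5% called higher among all tested genes. Of the 8 synthetases of the multisynthetase complex, 4 were called lower (Eprs, Dars, Lars and Rars) and 1 higher (Iars), with a median log2 fold change of -0.24. Of the 12 outside the complex, 5 were called lower and 2 higher, with a median of -0.15. The order of these medians depended on the fit. In the fit corrected for GC content and transcript length, described below, the complex had a median of -0.21, with 3 called lower and 0 higher. The 12 outside it then had a median of -0.27, with 6 called lower and 0 higher. The difference between the 2 sets was not tested. Of the scaffold genes, Eef1e1, which encodes AIMP3, was called lower, while Aimp1 and Aimp2 were not called. Eef1e1 had 332 and 318 counts in the anti-miR132-3p libraries, against 443 and 451 counts in the scramble libraries, a log2 fold change of -0.39 (edgeR adjusted p = 0.000437). Of the 9 cytosolic class I enzymes, 3 were called lower and 2 higher, and of the 10 class II enzymes, 5 and 1.

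The GC content of the mRNAs moved with these differences. Across the 20 cytosolic genes the Spearman correlation of log2 fold change with the GC content of the longest coding transcript was 0.586 (Pearson 0.524), and across 14 mitochondrial genes it was 0.38 (Pearson 0.47), as a description over genes that share the same 4 libraries. A fit that first removed each library's trend in GC content and transcript length called 0 cytosolic genes higher and 9 lower, with a median log2 fold change of -0.21. Over all tested genes this fit called 8.65% higher and 11.0% lower. Nars, Eprs, Sars, Gars, Yars and Lars were called lower in both fits. Sars moved to -0.61 and Yars to -0.48, while Dars (-0.21), Rars (-0.16) and Farsb (-0.13) were no longer called. Cars, Kars and Tars were called lower in the corrected fit only.

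The corrected log2 fold change of Aars was 0.08 (edgeR adjusted p = 0.358), that of Iars 0.22 (0.0888) and that of Wars 0.05 (0.711), so no cytosolic call in the higher direction was kept. Lars2 remained called, at 0.28 (edgeR adjusted p = 0.0173). Fars2, Hars2 and Tars2 were called lower after correction, at -0.68, -0.43 and -0.41. The mitochondrial median was then -0.01 in place of 0.10. Aars, at 56.4% GC, is the third most GC-rich of the cytosolic genes, and Nars and Eprs lie at 47.2%.

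**Figure D4:**
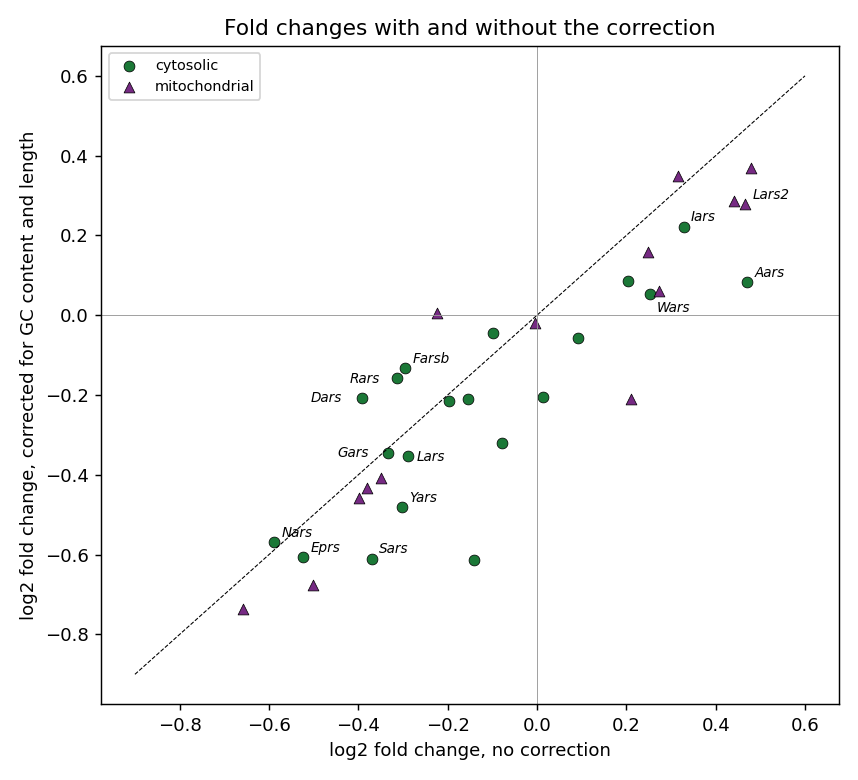
Log2 fold change after correction for GC content and transcript length (vertical) against that without correction (horizontal) for the 34 tested synthetases, with called genes of the uncorrected fit named. The dashed line marks equal values. Nars and Eprs stay near it at -0.57 and -0.61, while Aars lies far below it at 0.08.

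The cytosolic genes reported as ATF4 targets in mammalian cells, a list drawn from general knowledge, were described apart. Of these 12, 6 were called lower (Nars, Eprs, Sars, Gars, Yars and Lars) and 3 higher (Aars, Iars and Wars), with a median log2 fold change of -0.22. Of the other 8 cytosolic genes, 3 were called lower (Dars, Rars and Farsb) and 0 higher, with a median of -0.17. The shares among all tested genes were 10.4% lower and 13.5% higher. All 3 cytosolic genes called higher in this fit were thus among the reported targets, which make up 12 of the 20 cytosolic genes. After the GC and length correction 8 of these 12 were called lower and 0 higher, with a median of -0.33. Of the other 8 genes, 1 was then called lower and 0 higher, with a median of -0.14. All tested genes had 11.0% lower and 8.65% higher in that fit.

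Promoters were searched for the core of the ATF4 response element, TGATGNAA on either strand, in RefSeq's windows from 250 bases before to 50 bases after the start (GRCm38.p6). An entry was found for 27 of the 36 genes. Nars, Lars, Rars and Wars, all called, had no entry and were not searched. The same holds for Cars, Hars, Vars, Hars2 and Pars2. The core was present in 5 of 13 cytosolic promoters (38.5%), 0 of 14 mitochondrial promoters and 1219 of 27025 genes with an entry (4.51%). The stretches that hold it are shown on the gene's strand, with the match in capitals, because both directions of call are among them. A match is a description and not a binding site.
Aars, 112 bases before the start, chr8:111033690-111033749, + strand: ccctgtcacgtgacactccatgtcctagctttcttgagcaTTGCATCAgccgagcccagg
Aars, 9 bases after the start, chr8:111033811-111033870, + strand: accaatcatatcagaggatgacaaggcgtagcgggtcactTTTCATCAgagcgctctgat
Iars, 7 bases after the start, chr13:49682097-49682156, + strand: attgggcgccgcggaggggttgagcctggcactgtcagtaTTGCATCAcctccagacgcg
Gars, 30 bases before the start, chr6:55037931-55037990, + strand: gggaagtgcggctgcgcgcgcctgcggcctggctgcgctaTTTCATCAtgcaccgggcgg
Yars, 3 bases after the start, chr4:129189866-129189925, + strand: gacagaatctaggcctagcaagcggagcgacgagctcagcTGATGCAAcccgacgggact
Tars, 15 bases before the start, chr15:11399654-11399713, - strand: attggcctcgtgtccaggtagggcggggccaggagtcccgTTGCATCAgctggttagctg

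Aars and Iars were called higher, Gars and Yars lower, and Tars was not called, with a log2 fold change of -0.16. Of the other cytosolic genes called lower and given an entry, 4 held no core in this window.

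The pathway upstream of these genes was then examined from a list of kinases, eIF2 subunits and regulators. For this and the lists that follow, the shares called among all tested genes were 10.4% lower and 13.5% higher. Of 16 genes, all tested, 3 were called lower (18.8%) and 2 higher (12.5%), with a median log2 fold change of -0.16. Eif2ak4, the kinase GCN2 that senses uncharged tRNA, had 68 and 69 counts in the anti-miR132-3p libraries, against 35 and 42 counts in the scramble libraries, a log2 fold change of 0.90 (edgeR adjusted p = 0.00278). Eif2ak2, the interferon-inducible kinase PKR, had 21 and 20 counts in the anti-miR132-3p libraries, against 12 and 6 counts in the scramble libraries, a log2 fold change of 1.24 (edgeR adjusted p = 0.0221). Of the 3 called lower, Eif2s1, which encodes the phosphorylated subunit of eIF2, was at -0.35 and Eif2b1, of its exchange factor, at -0.34, and Eif2b1 was no longer called after the GC and length correction (-0.27, edgeR adjusted p = 0.134). Impact, an inhibitor of GCN2 that is named after its values were seen, was at -0.31, with 2750 and 2765 counts in the anti-miR132-3p libraries, against 3535 and 3642 counts in the scramble libraries.

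Of 9 genes for ATF4 and partner transcription factors, 8 were tested, 3 were called lower (37.5%) and 0 higher, with a median of -0.41. All 8 log2 fold changes were negative, against 5764 of 11427 tested genes. Atf4 itself had 240 and 236 counts in the anti-miR132-3p libraries, against 295 and 299 counts in the scramble libraries, a log2 fold change of -0.25 (edgeR adjusted p = 0.0274). Ddit3, which encodes CHOP, had 279 and 280 counts in the anti-miR132-3p libraries, against 414 and 453 counts in the scramble libraries, a log2 fold change of -0.57 (edgeR adjusted p = 3.45e-05). Cebpg, a dimer partner of ATF4, was at -0.47 (edgeR adjusted p = 0.000829).

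Of 18 other ATF4 target enzymes and stress genes, 17 were tested, 6 were called lower (35.3%) and 1 higher (5.88%), with a median of -0.16. Those lower included enzymes of serine and asparagine synthesis. Asns, asparagine synthetase, had 678 and 688 counts in the anti-miR132-3p libraries, against 1032 and 1056 counts in the scramble libraries, a log2 fold change of -0.55 (edgeR adjusted p = 2.89e-07). The 3 enzymes that make serine from a glycolytic intermediate were at -0.64 (Psat1), -0.52 (Psph) and -0.49 (Phgdh, named after its value was seen), each with an edgeR adjusted p under 0.05. Sesn2, a sestrin induced by stress, was called higher at 0.74, and was at 0.34 and not called after the GC and length correction. In this list 6 of 17 promoters (35.3%) held the ATF4 core.

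**Figure D5:**
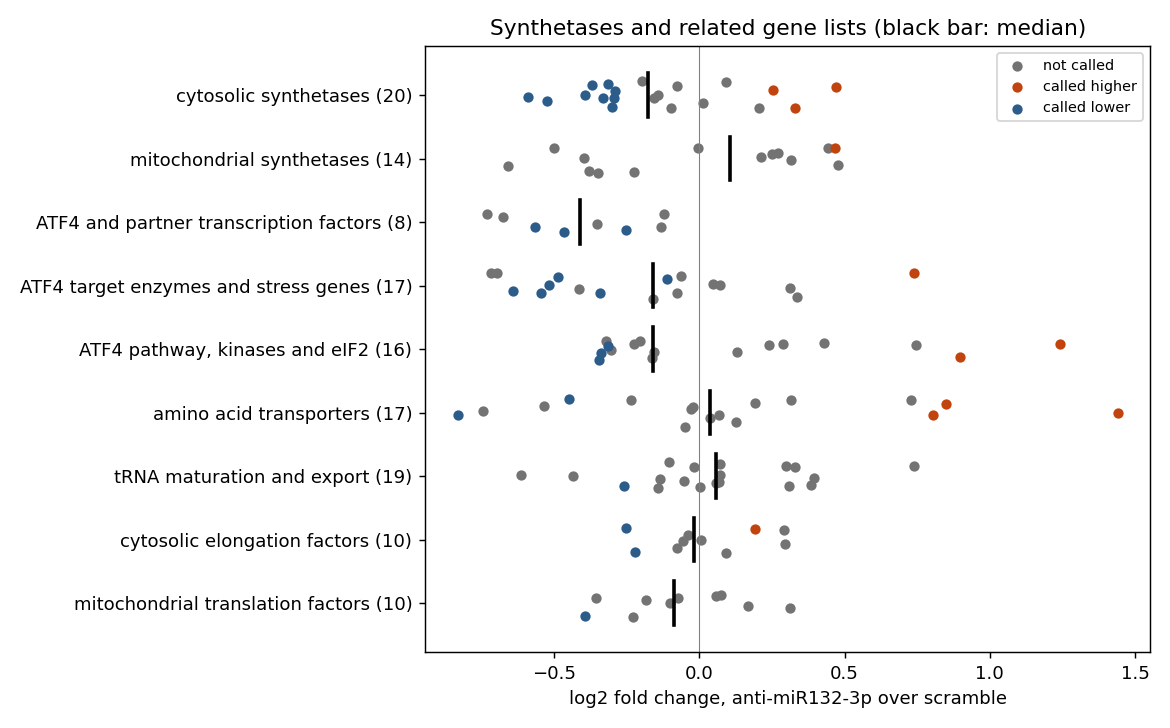
Log2 fold change of anti-miR132-3p over scramble for each tested gene of the synthetases and of 7 related lists, with the number tested beside each name. Points are genes, coloured by call and scattered vertically only for legibility, and the black bar is the median. The transcription factor list has its median at -0.41, the cytosolic synthetases at -0.18 and the mitochondrial synthetases at 0.10.

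Of 18 amino acid transporters, 17 were tested. Of these 3 were called higher (17.6%) and 2 lower (11.8%), near the shares of all tested genes, and the median log2 fold change was 0.04. Slc6a9, a glycine transporter that is also among the amacrine markers, was higher at 1.44, and Slc1a4 and Slc7a8, carriers of neutral amino acids, at 0.85 and 0.81. Slc7a8 was at 0.56 and not called after the GC and length correction (edgeR adjusted p = 0.123). Slc7a3, a carrier of cationic amino acids, was lower at -0.83.

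Genes for the steps before and after aminoacylation were described last. Of 20 genes for tRNA maturation, export and RNA polymerase III, 19 were tested and 0 were called higher and 1 lower (5.26%), Rtcb, the tRNA ligase, at -0.26. Of 10 cytosolic elongation and release factors, 2 were called lower (20%) and 1 higher (10%): Eef1g (-0.25) and Eef1a1 (-0.22), both of the factor that brings charged tRNA to the ribosome, were called lower, Eef2 (0.19), the translocation factor, was called higher, and Eef1a1 and Eef2 were no longer called after the correction. Of 10 mitochondrial translation factors, 0 were called higher and 1 lower (10%), Guf1, which encodes a mitochondrial GTPase of translation, at -0.39. No gene was called among the 3 tested trans-editing factors, the 4 genes for mitochondrial glutaminyl-tRNA and formylmethionyl-tRNA, or Tars3, and 1 of these 8 genes had an unadjusted p under 0.05. Dtd1, the most abundant editing factor, was at -0.14, and Gatc, of the amidotransferase that makes mitochondrial glutaminyl-tRNA, at 0.21.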

How the data were processed

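The authors deposited raw whole-number counts for each gene, in 1 table with 2 libraries of each group and 0 other per-sample columns. The submitters' processing notes name build GRCm39 and, with no roles given, HISAT2 2.2.1, Trimmomatic 0.39, SAMtools 1.10 and the programs Cufflinks, Cuffdiff and Cuffnorm. The sources used here do not give the counter, the annotation release or strandedness. Names were found for 51486 identifiers in GENCODE M21 (GRCm38), which also gave transcript lengths, GC content, 3' UTRs and overlaps. From the counts, edgeR 4.0.16 (R 4.3.3) was run on the genes passing filterByExpr, 98.6% of counts, with TMM scaling, glmQLFit and glmQLFTest, and adjustment over all 11427 tested genes. Per-gene CPM and ratios use TMM-scaled library sizes and summed pairs, with exact Clopper-Pearson 95% intervals. Library agreement was tested by chi-square over genes with at least 10 counts. GC content and length were removed with splines of 4 degrees of freedom, for the 98.7% of tested genes with values. The code was tested on simulated data.

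The members and lists were chosen with earlier results of these data known. All 36 members are accounted for. Called members are given by library, and from each related list up to 4 called genes of the largest change at a mean of at least 5 CPM, or the most abundant gene where none was called, are named. Impact and Phgdh fall outside this rule, which was not used for interferon and marker lists. Aimp1, Aimp2, Tars3 and overlapping genes are named for context. Some list genes are not reported here. No label says whether separate animals gave the 2 libraries of a group. DESeq2 1.42.0, limma 3.58.1 and Python 3.11.15 served the alternatives, sequences and plots.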

Additional observations from a re-analysis of the deposited data

How the results depend on the processing

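Calls rested on the small spread between paired libraries. Without a filter on low counts edgeR called 1 gene higher and 2 lower of all genes and 0 synthetases, although 3 cytosolic and 2 mitochondrial synthetases were higher and 11 and 3 lower at an unadjusted p under 0.05; the prior degrees of freedom were 1.162 there and 14.07 with the filter. With summed pairs and an assumed coefficient of variation of 0.1, 470 genes were called higher and 56 lower, and at 0.2, 50 and 6, with 0 synthetases at either. Leaving out any library gave 0 to 0 calls for all genes and both compartments, with a lone library assumed to vary like the other group. It gave cytosolic medians of -0.231 to -0.181, mitochondrial medians of -0.053 to 0.121 and a difference of -0.321 to -0.175. DESeq2's Wald test called 481 higher and 274 lower, with 1 cytosolic gene higher and 6 lower.

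The GC and length correction called 988 genes higher and 1255 lower, with 0 cytosolic genes higher and 3 mitochondrial genes lower, a cytosolic median of -0.209 and a mitochondrial median of -0.0063, reversed in sign; the cause was not tested. Library totals gave a cytosolic median of -0.149. Scaling moved the median of all genes by at most 0.027. The fold rule (25% higher or 20% lower) in place of the test marked 2737 higher and 1863 lower, with 5 cytosolic genes lower and 3 mitochondrial genes higher and 5 lower. The ratio of ratios was 0.888 without Nars and Eprs, 0.891 without Lars2, 0.986 without all 3 and 0.776 without Aars, alternatives chosen after seeing the data.

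A replicate block called 1740 genes higher and 1437 lower, with 3 cytosolic genes higher and 10 lower and 1 mitochondrial gene lower; the labels do not pair the numbers, and same-numbered deviations correlated at 0.0124 over genes.

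Uncalled members changed sign under some settings. They were Nars2 (0.0227) with library totals, Mars1 (-0.0047) with upper quartile factors, and Mars1 (-0.205), Qars (-0.058), Aars2 (-0.209) and Rars2 (0.0057) after the GC and length correction. When libraries were left out in turn, Hars ranged from -0.222 to 0.0192, Mars1 from -0.111 to 0.138, Qars from -0.0097 to 0.190, Vars from -0.543 to 0.175, Aars2 from -0.040 to 0.428 and Nars2 from -0.067 to 0.0593.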
